A study of Homo sapiens with 6 samples.

Results

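The genes described here are the 220 well-expressed ZNF genes of Karpas-45, a long-established human cell line from T-cell acute lymphoblastic leukemia. They were chosen by a measured value: a protein-coding gene entered if its symbol was ZNF followed by a number, with or without 1 closing letter, and its mean over the 3 scramble libraries was at least 20 CPM (read counts scaled to 1000000 reads assigned to genes). Of 509 protein-coding ZNF genes among 78932 gene identifiers, 220 met this rule, and all 220 were among the 17677 genes tested. Since the rule used the scramble libraries, which also stand in the comparison, the levels that chose the members are given as a description. The study asked, within a series on menin in T-lineage leukemia, what a hairpin against MEF2C, a MADS-box transcription factor, does to gene expression. One group carried a scramble control hairpin (genotype labelled WT) and the other the hairpin labelled shMEF2CKD2 (genotype labelled MEF2C KD). Both groups were listed as untreated leukemic blasts from bone marrow. Per the series' text the MEF2C hairpin came in a lentiviral vector linked to GFP, and sorting of GFP-positive cells took place 120 hours after transduction. No sorting time is given for the scramble libraries, so a difference in handling and the hairpin cannot be told apart. Each group held 3 libraries that the labels call technical replicates of 1 cell line and 1 hairpin, so the p-values below measure only the spread between such replicates.

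ZNF genes encode proteins with C2H2 zinc fingers, in which paired cysteines and histidines hold a zinc ion and a short helix reads a few DNA bases. Fingers are strung together by a conserved linker, and long arrays recognise long DNA sites. Many of these proteins also carry a KRAB domain, which recruits TRIM28 and through it SETDB1 and heterochromatin protein 1, and such proteins are known for silencing retroelements. The genes arose by repeated duplication and stand in clusters, above all on chromosome 19.

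The label was checked against the proteins of the GENCODE 29 transcript with the longest coding sequence. At least 1 C2H2 match was found in 216 of the 220 members, with a median of 10 fingers and at most 32, in ZNF91. The 4 members without a match were ZNF738, ZNF839, ZNF330 and ZNF862. Letters of a KRAB box were found in 129 members and letters of a SCAN box, a dimerisation domain, in 11. The linker that joins fingers is what most members have in common at the level of sequence, so its coding bases are shown for 8 of the members whose changes are described below. A gene can have several linkers, and 1 is shown for each: the first that holds the run marked in capitals, or the first of all where none does. They were read from GENCODE 29 transcripts, 5′ to 3′, 21 bases each, and capitals mark the run TGAGAAA, which was picked with earlier results of these data known.
ZNF587B: cacactggagaaaagccttat
ZNF614: catacaggggagaaaccctat
ZNF146: cacactggagaaaaacctttt
ZNF544: cacactggTGAGAAAcctttt
ZNF100: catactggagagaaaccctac
ZNF493: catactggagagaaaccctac
ZNF664: catacaggTGAGAAAccgtat
ZNF528: catactggTGAGAAAccttac
ZNF544 held the run in 1 of its 11 linkers, ZNF664 in 1 of 5 and ZNF528 in 1 of 7. The linkers shown for ZNF100 (1 of 7) and ZNF493 (1 of 5) were the same in all 21 bases, and this form was the most frequent, with 100 of the 862 linkers found in 154 members. Of the 862 linkers, 64 (7.42%) held TGAGAAA, and 21 of these were in ZNF850 alone, which has 23 linkers.

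Reads assigned to genes numbered between 45560303 and 97077335 per library. MEF2C itself received 2, 1 and 0 reads with the scramble hairpin and 2, 0 and 0 with its own hairpin. Pooled, this was 0.0177 CPM (95% Poisson interval 0.00365 to 0.0517) in scramble and 0.00967 CPM (0.00117 to 0.0349) in MEF2C hairpin libraries. MEF2C RNA thus lay under the floor of 3 reads in every library, also with the scramble hairpin. A knockdown could not be measured from it, and the target does not check the labels. All 11 T-lineage markers lay above 1 CPM, and their sum ran from 4355 to 4441 CPM in scramble and from 4497 to 4593 CPM in MEF2C hairpin libraries, with 7 markers called higher and 1 lower. The myeloid, B-lineage, NK and erythroid lists each summed to at most 6.28 CPM, and ELANE, CD22, EBF1, VPREB1 and NCR1 had no read. Markers of embryonic kidney cells summed to 24.6 to 26.3 CPM in scramble and 26.9 to 28.3 CPM in MEF2C hairpin libraries, with 2 of 4 tested called higher and 1 lower, and EPCAM and LIN28B had no read. What part these shifts have in the results on ZNF genes was not tested. Reads aligned to more than 1 place took 16.1% of MEF2C hairpin replicate 3 and between 3.56% and 6.86% of the other 5 libraries.

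ZNF members were more often lower than higher in MEF2C hairpin cells. Of the 220, 80 (36.4%) were called lower, 18 (8.18%) higher and 122 neither, by edgeR's quasi-likelihood test at an adjusted p under 0.05 over all tested genes. Their log2 fold changes (MEF2C hairpin over scramble) ran from -0.61 to 0.65 with a median of -0.07, and 153 were negative. The changes were small: the middle of the range, from the lower to the upper quartile, was -0.16 to 0.01. Over all 17677 tested genes, 15.3% were called lower and 13.5% higher, with a median of 0.00. Among the 7119 other protein-coding genes of at least 20 CPM in scramble, which have more reads than most tested genes, 31% were called lower and 15.1% higher, with a median of -0.03. The members' share of all gene reads was 1.287 ± 0.00761% (SD, n = 3) in scramble and 1.261 ± 0.00894% (SD, n = 3) in MEF2C hairpin libraries, from 1.279% to 1.294% against 1.253% to 1.271%, so the groups did not overlap. In bulk RNA, fewer cells with a transcript and less of it per cell cannot be told apart.

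**Figure D1:**
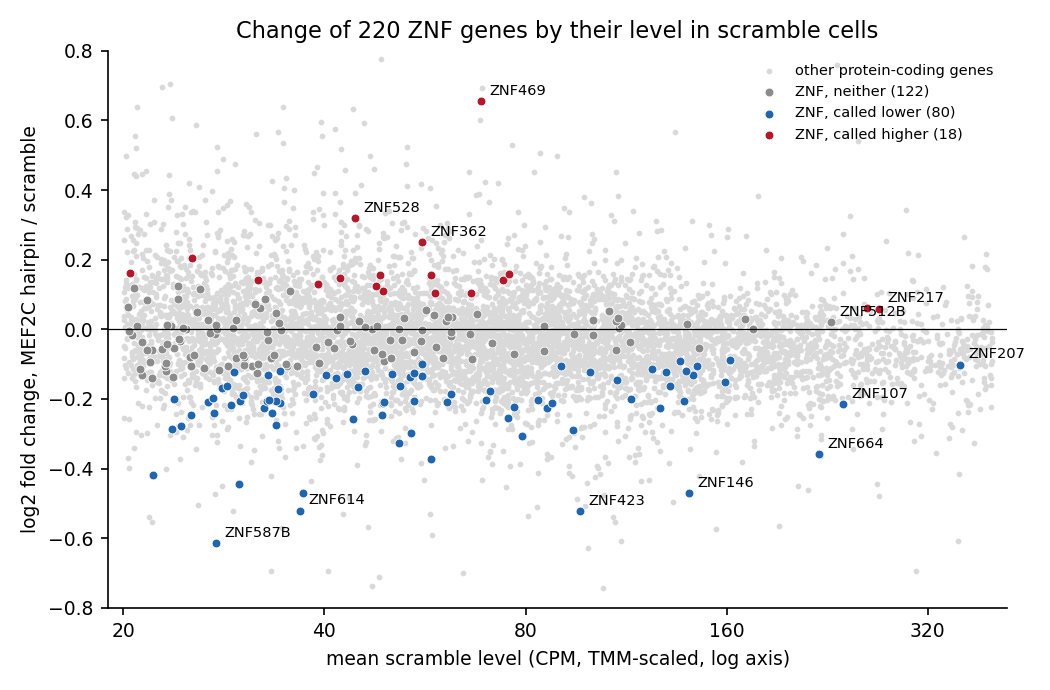
Each large point is 1 of the 220 ZNF members, by its mean scramble level (CPM, log axis) and its log2 fold change, and small grey points are other protein-coding genes, of which 359 lie outside the axes. More blue points (called lower, 80) than red points (called higher, 18) are seen at every level.

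Among other protein-coding genes, lower calls were more frequent and higher calls less frequent at higher levels. The members were therefore set beside other genes of the same level. Of the 103 members between 20 and 40 CPM, 31 (30.1%) were lower and 4 (3.88%) higher with a median log2 fold change of -0.08, where other protein-coding genes of that class had 14.7% lower, 18.5% higher and a median of 0.00. Of the 73 members between 40 and 80 CPM, 25 (34.2%) were lower and 12 (16.4%) higher with a median of -0.04, against 26% lower, 16% higher and a median of -0.02. Of the 44 members at 80 CPM and over, 24 (54.5%) were lower and 2 (4.55%) higher with a median of -0.10, against 43.5% lower, 12.5% higher and a median of -0.05. With the classes weighted as the members fall into them, the other genes had 24.2% lower, 16.5% higher and a median of -0.02. The excess of lower calls was thus widest in the lowest class, and in the middle class the share of higher calls was close to that of other genes. The 2 groups of 3 libraries did not overlap in CPM for 125 members (56.8%). This lay close to the 55.3% of other protein-coding genes of at least 20 CPM, a share not matched for level, and above the 39.9% of all tested genes. From the lowest to the highest class, the groups did not overlap for 58 of 103, 40 of 73 and 27 of 44 members. Among other genes this held for 781 of 1735, 1160 of 2244 and 1998 of 3140. Without TMM scaling, on gene totals alone, 62 members were lower and 28 higher with a median of -0.03, and the other protein-coding genes then had 19.2% lower, 24.3% higher and a median of 0.01.

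**Figure D2:**
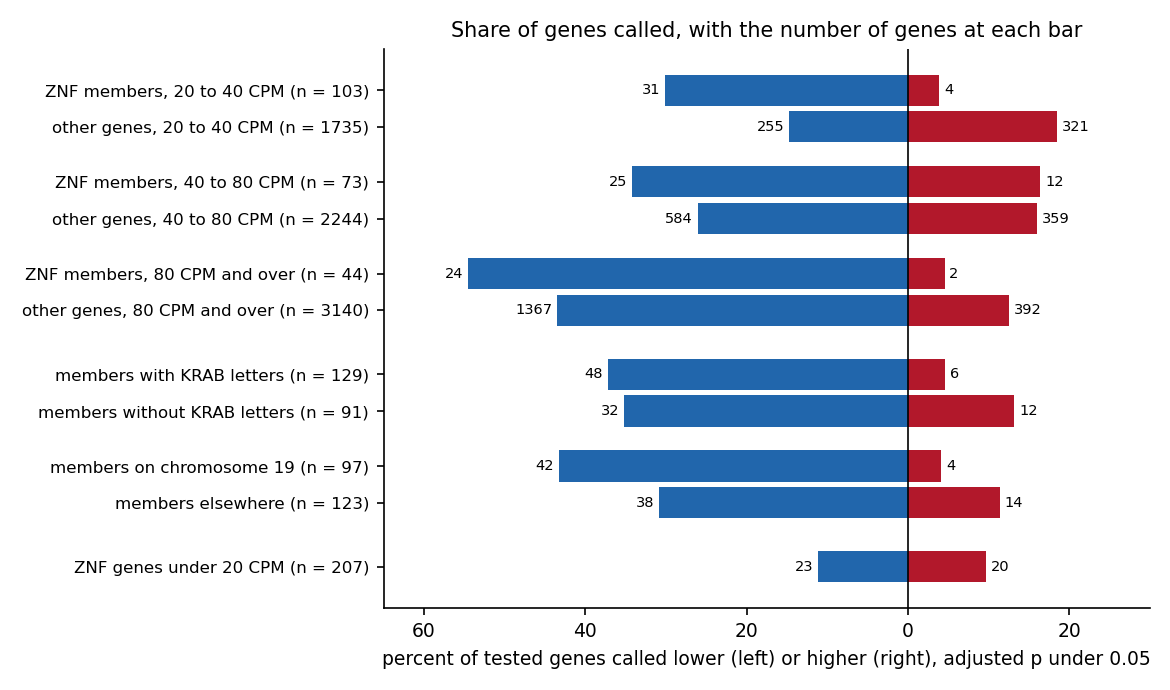
Bars give the percent of tested genes called lower (left, blue) or higher (right, red) in each group of genes, and the number at each bar is the count of genes. In the 20 to 40 CPM class 31 of 103 ZNF members were lower against 255 of 1735 other genes.

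The largest decrease was that of ZNF587B, a KRAB zinc finger gene of 15 finger matches at chr19:57819741-57846238 (GRCh38). It stood at 27.2, 28.1 and 27.2 CPM in scramble replicates 1 to 3 and at 17.99, 17.6 and 18.3 CPM in MEF2C hairpin replicates 1 to 3. The groups were far apart, and the log2 fold change was -0.61 (SE 0.052, adjusted p = 5.02e-12). Of the 50-base stretches of its transcript, 37.98% also occur in other genes, above all ZNF814, so its count is uncertain by as much as reads were assigned between such copies. Its neighbour ZNF586, whose gene model touches it at chr19:57769655-57819939 and which shared no 50-base stretch, fell too, from 21.3, 22.7 and 22.6 CPM to 17.0, 16.2 and 16.6 CPM (log2 fold change -0.42, adjusted p = 2.21e-07).

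ZNF423, a factor with 27 finger matches that binds EBF1 and takes part in BMP signalling, was the largest decrease outside chromosome 19 (chr16:49487524-49857919). It measured 96.4, 97.2 and 95.5 CPM in scramble and 66.3, 65.6 and 69.7 CPM in MEF2C hairpin replicates. The scramble values lay within 2 CPM of each other while the hairpin values were all below 70 CPM, and the log2 fold change was -0.52 (SE 0.031, adjusted p = 3.57e-16). ZNF614, a KRAB gene at chr19:52012765-52030240, went from 36.9, 35.8 and 37.6 CPM to 26.3, 25.4 and 25.2 CPM, a log2 fold change of -0.52 (SE 0.046, adjusted p = 1.26e-11). Other genes held 0% of the 50-base stretches of ZNF423 and 1.68% of those of ZNF614, far less than for ZNF587B.

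ZNF146, a protein made almost only of zinc fingers, fell from 141, 142 and 139 CPM to 103, 103 and 98.2 CPM (log2 fold change -0.47, SE 0.027, adjusted p = 9.23e-17). ZNF664 was the most abundant of the 10 largest decreases and went from 219.7, 218 and 221 CPM to 176, 169 and 170.1 CPM (log2 fold change -0.36, SE 0.023, adjusted p = 4.86e-15). These 2 genes have no KRAB letters, unlike the 4 that follow. ZNF544 fell from a mean of 37.2 ± 0.708 to 26.9 ± 1.39 CPM (SD, n = 3; log2 fold change -0.47). ZNF426 fell from 29.7 ± 2.33 to 21.8 ± 1.31 CPM (SD, n = 3; log2 fold change -0.45), with the widest scatter for its level of the 10, since scramble replicate 3 stood at 32.4 CPM and the others at 28.0 and 28.8 CPM. ZNF100 fell from 57.8 ± 2.44 to 44.8 ± 0.479 CPM (SD, n = 3; log2 fold change -0.37), and ZNF493 from 51.6 ± 1.74 to 41.2 ± 1.16 CPM (SD, n = 3; log2 fold change -0.33). In each of the 10 genes with the largest decrease every MEF2C hairpin library lay below every scramble library, which the rule for naming them required.

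**Figure D3:**
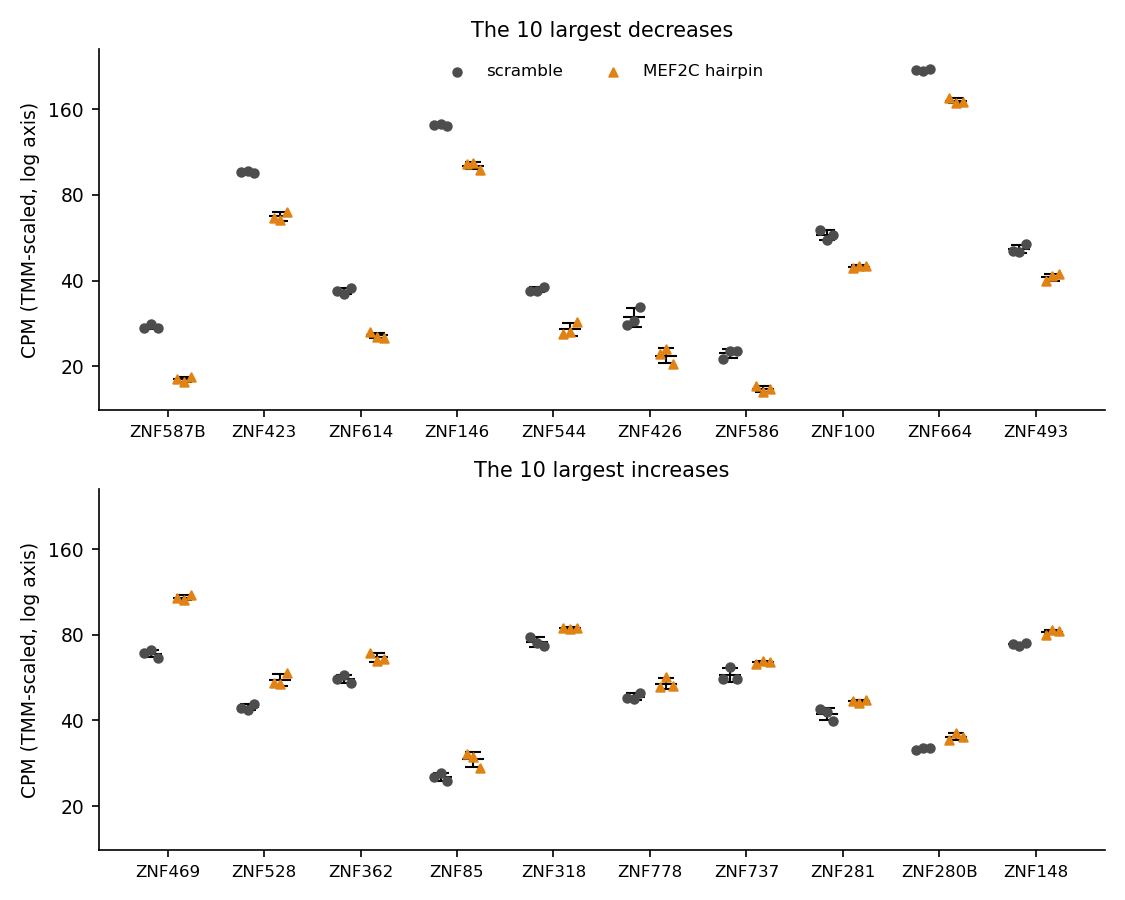
Points are single libraries (grey circles scramble, orange triangles MEF2C hairpin) in CPM on a log axis for the members with the 10 largest decreases and the 10 largest increases among called members whose groups do not overlap, and bars are the mean and SD of 3 libraries. ZNF587B falls from 27.5 to 17.97 CPM and ZNF469 rises from 68.6 to 108 CPM.

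Among the 18 members that rose, ZNF469 stood apart. This gene, mutated in brittle cornea syndrome, measured 68.9, 70.5 and 66.5 CPM in scramble and 108, 106 and 110.3 CPM in MEF2C hairpin replicates. Its log2 fold change of 0.65 (SE 0.030, adjusted p = 2.54e-19) was the largest of all 220 members in either direction. ZNF528 followed, from 44.2, 43.6 and 45.6 CPM to 54.0, 53.9 and 58.9 CPM (log2 fold change 0.32, SE 0.040, adjusted p = 4.58e-08). ZNF362 rose from 56.2, 57.8 and 54.0 CPM to 69.2, 64.8 and 65.7 CPM (log2 fold change 0.25, SE 0.036, adjusted p = 7.74e-07). The other increases were at most 0.21. ZNF227 was called at 0.16 (adjusted p = 0.0274) with 19.2, 21.7 and 20.5 CPM in scramble and 23.1, 23.9 and 21.4 CPM in MEF2C hairpin replicates, but its groups overlapped and the call was lost in 5 of 16 alternatives. ZNF85 rose from 25.4 ± 0.829 to 29.2 ± 1.70 CPM (SD, n = 3), and ZNF737 from 57.7 ± 3.32 to 64.1 ± 0.766 CPM (SD, n = 3).

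A pair of related GC-box-binding factors rose alike. ZNF148 measured 74.0, 73.0 and 75.1 CPM in scramble and 80.1, 82.9 and 82.2 CPM in MEF2C hairpin replicates (log2 fold change 0.14, adjusted p = 0.000378), and ZNF281 43.8, 42.8 and 39.9 CPM against 46.7, 46.0 and 47.4 CPM (log2 fold change 0.15, adjusted p = 0.0053). Both groups were separate for both genes, but ZNF281 lost its call without scramble replicate 3 (adjusted p = 0.0825). ZNF318, which shapes the splicing of immunoglobulin M and D transcripts in B cells, rose from 75.6 ± 3.02 to 84.5 ± 0.452 CPM (SD, n = 3; log2 fold change 0.16). ZNF778 (log2 fold change 0.16) and ZNF280B (0.14) lost their calls without MEF2C hairpin replicate 2, with adjusted p of 0.0536 and 0.1.

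Of the most abundant members, ZNF207, ZNF217, ZNF292 and ZNF512B changed little, whereas ZNF107 had a clearer decrease. ZNF207, which binds and stabilises the checkpoint protein BUB3, had 359, 360.4 and 354 CPM in scramble and 338, 329 and 333 CPM in MEF2C hairpin replicates, a log2 fold change of -0.10 (SE 0.021, adjusted p = 0.000205). ZNF217, an oncogene amplified in breast cancer and partner of CoREST-type complexes, had 278, 267 and 266 CPM against 280.2, 279.5 and 286 CPM (log2 fold change 0.06, adjusted p = 0.0414), and ZNF292, mutated in a neurodevelopmental disorder, 269, 250.3 and 259 CPM against 271, 269 and 272 CPM (0.06, adjusted p = 0.0479). The libraries of ZNF292 overlap. The call of ZNF217 was lost in 8 of 16 alternatives and that of ZNF292 in 9, for example without scramble replicate 2 (adjusted p = 0.153 and 0.325). ZNF107 fell, from 242, 241 and 233 CPM to 202, 209.9 and 205 CPM (log2 fold change -0.21, adjusted p = 2.33e-09). ZNF512B, at 226, 229 and 232 CPM against 239, 232 and 226 CPM, did not pass the test (adjusted p = 0.573), and its call depended on the scaling: it was lower once GC content and length were corrected for (-0.05, adjusted p = 0.0415) and higher on gene totals without TMM scaling (0.06, adjusted p = 0.0312). Per kilobase of exonic sequence, which allows genes to be compared, ZNF22 had the highest scramble level of all members, at 53.4 CPM per kb against a median of 6.77, followed by ZNF217 at 43.7 and ZNF512B at 38.7.

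At the other end, the members just inside the level of 20 CPM were ZNF783, ZNF429 and ZNF227, at 20.05, 20.1 and 20.2 CPM on gene totals, and those just outside were ZNF616, ZNF226 and ZNF621, at 19.9, 19.8 and 19.8 CPM. The members with the smallest change were ZNF143, an activator of many promoters, with ZNF189, ZNF138, ZNF605 and ZNF480. ZNF143 measured 25.04, 24.3 and 25.1 CPM in scramble and 23.6, 24.5 and 26.5 CPM in MEF2C hairpin replicates (adjusted p = 0.996), and the libraries of the other 4 genes overlapped likewise.

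Several members have roles outside DNA silencing by KRAB, or named targets, and were picked by those roles after their values had been seen. ZNF91, which silences SVA elements, fell from 56.5, 56.2 and 55.4 CPM to 51.9, 49.9 and 51.5 CPM (log2 fold change -0.13, adjusted p = 0.00374), while ZNF93, which silences older LINE-1 elements, had 36.5, 36.4 and 33.5 CPM against 37.5, 39.1 and 37.98 CPM (0.11, adjusted p = 0.0595). ZNF445, which maintains imprints, fell by 0.12 on the log2 scale (adjusted p = 0.000299). ZNF638, which silences unintegrated retroviral DNA together with the HUSH complex, fell by 0.10 (adjusted p = 0.00127). Of the ZMYND8-associated proteins ZNF592, ZNF687 and ZNF532, the first fell from 143 ± 2.23 to 130.3 ± 2.94 CPM and the last from 132 ± 5.76 to 118 ± 4.56 CPM, whereas ZNF687 rose from 47.8 ± 0.376 to 52.1 ± 0.268 CPM (SD, n = 3 each). ZNF711, mutated in X-linked intellectual disability, fell from 129, 125 and 127 CPM to 106, 111 and 109 CPM (log2 fold change -0.23, adjusted p = 1.38e-08), and ZNF827, which brings the NuRD complex to telomeres, from 79.4, 73.4 and 73.5 CPM to 62.1, 62.4 and 65.6 CPM (-0.25, adjusted p = 3.65e-07). ZNF384, a fusion partner in acute leukemia, fell by 0.11, and ZNF335, mutated in microcephaly, by 0.15. ZNF274, which binds the ends of other zinc finger genes (adjusted p = 0.179), ZNF10, the source of the KRAB domain used in CRISPR interference (0.982), ZNF598, the ubiquitin ligase of collided ribosomes (0.739), ZNF644, a partner of the methyltransferases EHMT1 and EHMT2 (0.793), and ZNF451, a SUMO ligase (0.587), did not pass.

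Members with KRAB letters were rarely higher. Of 129, 48 (37.2%) were lower and 6 (4.65%) higher, with a median log2 fold change of -0.09, and of the 91 without, 32 (35.2%) were lower and 12 (13.2%) higher, with a median of -0.05. The share of lower calls was nearly the same, and the classes differed in the share of higher calls, a difference that was not tested. They were not matched for level, with median scramble levels of 34.3 CPM with KRAB letters and 58.8 CPM without. The search for letters in 1 transcript per gene can miss a degenerate box, so KRAB genes may stand in the class without. Of the 11 SCAN members, 4 were lower and 0 higher (0 also at an unadjusted p under 0.05, and with DESeq2 or limma-voom). By finger number, the median was -0.01 for the 32 members with fewer than 5 fingers, -0.08 for 63 with 5 to 9, -0.10 for 80 with 10 to 14 and -0.06 for 45 with 15 or more. Members were less rich in GC than other genes, with a median of 42.9% of exonic bases against 47.6%, and the 48 members of at least 50% GC had 12 lower, 5 higher and a median of -0.03. Among other protein-coding genes of at least 50% GC, 29.6% were lower and 17.5% higher, also with a median of -0.03. The share of lower calls among the GC-rich members was thus not above that of these other genes. The other genes had a higher median scramble level, and lower calls were more frequent at higher levels. Whether the GC-rich members have an excess at equal level was therefore not tested. Under 40% GC, 39.7% of members and 30.7% of other genes were lower. From 40 to 50% GC these shares were 39.5% and 32.5%. With offsets for GC content and length, 91 members (41.4%) were lower and 20 higher, but the share of lower calls among other protein-coding genes went up as well, from 31% to 37.1%, and the gap to the members narrowed.

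Position on the genome went with the change, among members and among other protein-coding genes. Of the 97 members on chromosome 19, 42 (43.3%) were lower and 4 (4.12%) higher with a median of -0.11, and of the 123 elsewhere 38 (30.9%) were lower and 14 (11.4%) higher with a median of -0.03. The 383 other protein-coding genes of at least 20 CPM on chromosome 19 had 40.7% lower, 14.4% higher and a median of -0.06. The 6736 elsewhere had 30.4% lower, 15.1% higher and a median of -0.03. In both places the share of lower calls was near that of the ZNF members, and higher calls were fewer among the members. The groups were not matched for level. Median scramble levels on chromosome 19 were 74.4 CPM for the other genes and 32.9 CPM for the members. Elsewhere they were 72.0 and 53.9 CPM. The differences were not tested. KRAB letters and chromosome 19 go together, since 83 of its 97 members have them. On chromosome 19, 34 of the 83 with KRAB letters were lower and 4 higher (median -0.11), and 8 of the 14 without were lower and 0 higher (median -0.12). Elsewhere, 46 members with KRAB letters and 77 without both had a median of -0.03. Of these, 14 (30.4%) and 24 (31.2%) were lower, and 2 (4.35%) and 12 (15.6%) higher, a difference in higher calls that was not tested. On gene totals without TMM scaling the median was -0.06 on chromosome 19 and 0.01 elsewhere, so the direction elsewhere depends on the scaling.

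Zinc finger genes of chromosome 19 were joined into runs where neighbours lay within 500 kb, and 8 runs held at least 3 members. In the run from 8.5 to 9.8 Mb, 7 of 8 members fell, with a median of -0.19: ZNF426, ZNF266, ZNF317, ZNF558, ZNF562, ZNF561 and ZNF121. ZNF266 went from 75.6, 80.7 and 81.1 CPM to 64.1, 64.9 and 62.5 CPM (log2 fold change -0.31, adjusted p = 2.43e-09), and ZNF559 was the 1 member of this run that did not pass (0.01, adjusted p = 0.92). In the last run, from 57.2 to 58.5 Mb, 12 of 23 fell, with a median of -0.14, among them ZNF587B, ZNF586, ZNF544, ZNF805, ZNF776 and ZNF749. The runs between these had 2 of 5 lower (11.5 to 12.6 Mb), 8 of 17 lower and 2 higher (19.7 to 24.1 Mb), 5 of 9 lower (36.2 to 37.8 Mb), 0 of 4 lower (2 at an unadjusted p under 0.05 in edgeR, 0 with DESeq2) and 1 higher (43.5 to 44.5 Mb), 2 of 19 lower and 1 higher (51.6 to 53.6 Mb) and 3 of 5 lower (55.5 to 56.7 Mb). The run at 51.6 to 53.6 Mb thus held few calls, with a median of -0.06, although its size is close to that of the last run. Differences between runs were not tested.

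**Figure D4:**
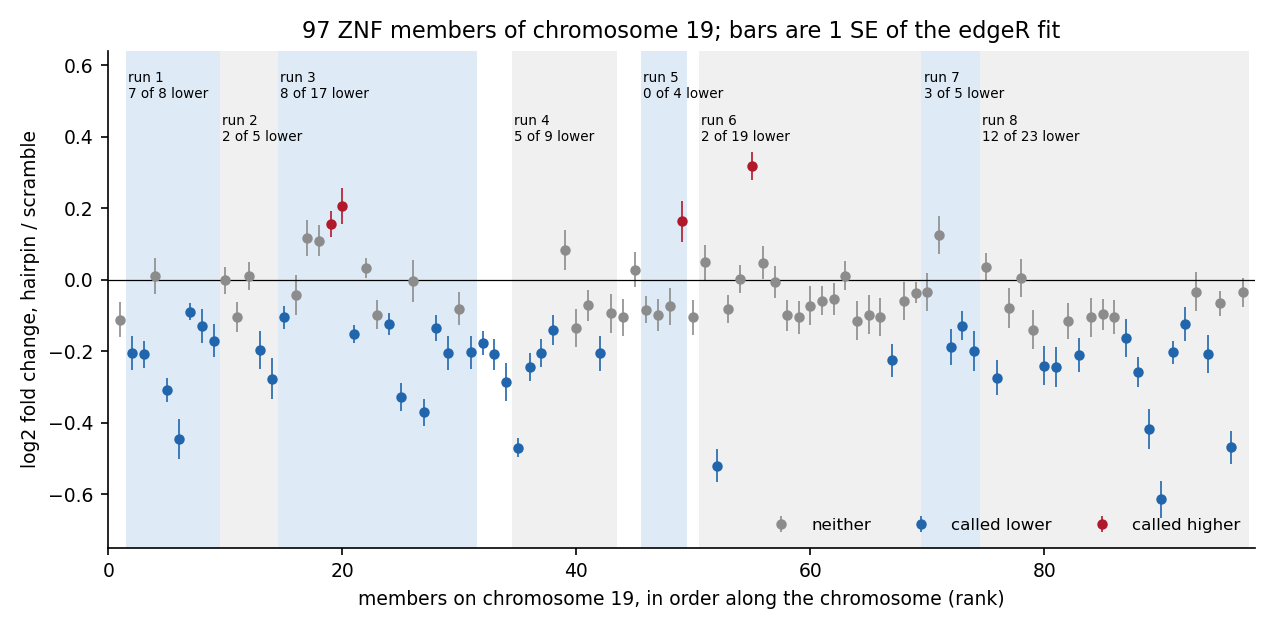
Each point is 1 of the 97 members on chromosome 19 in order along the chromosome, with its log2 fold change and 1 SE, and shading marks the 8 runs of neighbouring zinc finger genes. In run 1, 7 of 8 members are lower, in run 6, 2 of 19, and in run 8, 12 of 23.

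The increase of ZNF528 in the sparse run was shared by its neighbours, a stretch picked after its values had been seen. From ZNF610 (chr19:52336245-52367778) to ZNF578 (chr19:52453576-52512154), 6 tested named genes rose one after the other: ZNF610, ZNF880, the antisense transcript ZNF528-AS1, ZNF528, ZNF534 and ZNF578. Except for ZNF528 they lie under the level of the members. ZNF610 measured 12.1, 14.3 and 13.8 CPM in scramble and 20.1, 19.4 and 18.1 CPM in MEF2C hairpin replicates (log2 fold change 0.52, adjusted p = 4.9e-08), and ZNF880 8.24, 8.67 and 9.12 CPM against 12.7, 12.7 and 12.9 CPM (0.55, adjusted p = 2.3e-07). ZNF528-AS1 rose from 17.6, 18.6 and 18.5 CPM to 25.2, 23.9 and 23.5 CPM (0.41, adjusted p = 1.61e-07). The sources used here do not say whether reads were counted by strand. ZNF578 rose by 0.35 (adjusted p = 0.00299) and ZNF534, at a mean of only 0.697 CPM in scramble, by 0.74 (adjusted p = 0.0305), a call lost in 5 of 16 alternatives. The other 5 genes were called in all 16. On either side the rise ended: ZNF480 had 54.7, 50.1 and 50.5 CPM against 51.6, 53.8 and 49.9 CPM (adjusted p = 0.982) and ZNF808 a log2 fold change of 0.05 (adjusted p = 0.506). In the run from 19.7 to 24.1 Mb, ZNF737 and ZNF85 rose and the members before them, ZNF253 and ZNF93, did not pass at 0.12 and 0.11. ZNF682, which lies between ZNF93 and ZNF737 and is under the level of the members, had a negative value (-0.12, adjusted p = 0.226), so these genes were not an unbroken stretch of positive values.

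The proteins that KRAB zinc fingers recruit, or that act beside them, were read from a list of 32 genes, of which 30 were tested. Of these, 15 (50%) were lower and 3 (10%) higher, with a median of -0.07. At a median scramble level of 159 CPM they compare with other protein-coding genes of 80 CPM and over, which had 43.5% lower, 12.5% higher and a median of -0.05, so the list's shares lay near that background. TRIM28, the scaffold to which the KRAB domain binds, fell from 383, 377 and 365 CPM to 305, 296 and 296 CPM (log2 fold change -0.33, SE 0.022, adjusted p = 1.23e-14), the largest change of the list. TRIM28 lies 62.9 kb beyond the last zinc finger run of chromosome 19. CBX5, heterochromatin protein 1 alpha, fell from 721, 724 and 732 CPM to 623, 622 and 632 CPM (log2 fold change -0.21, adjusted p = 1.77e-11), and RESF1, which binds SETDB1, from 352, 353 and 339 CPM to 301, 309 and 310.2 CPM (-0.18, adjusted p = 2.38e-08). UHRF1, which with DNMT1 maintains DNA methylation, fell by 0.14 (adjusted p = 1.23e-07), and DNMT1 by 0.12 (adjusted p = 1.67e-05). SETDB1, the histone H3 lysine methyltransferase of the pathway, went from 76.9, 74.2 and 77.7 CPM to 72.2, 72.8 and 71.2 CPM (-0.08, adjusted p = 0.0476), a call lost in 11 of 16 alternatives. CHD3, a NuRD remodeler (0.16), ATF7IP, the partner of SETDB1 (0.11), and RCOR1, the CoREST scaffold (0.07), rose. On gene totals without TMM scaling 7 of the list were lower and 4 higher.

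**Figure D5:**
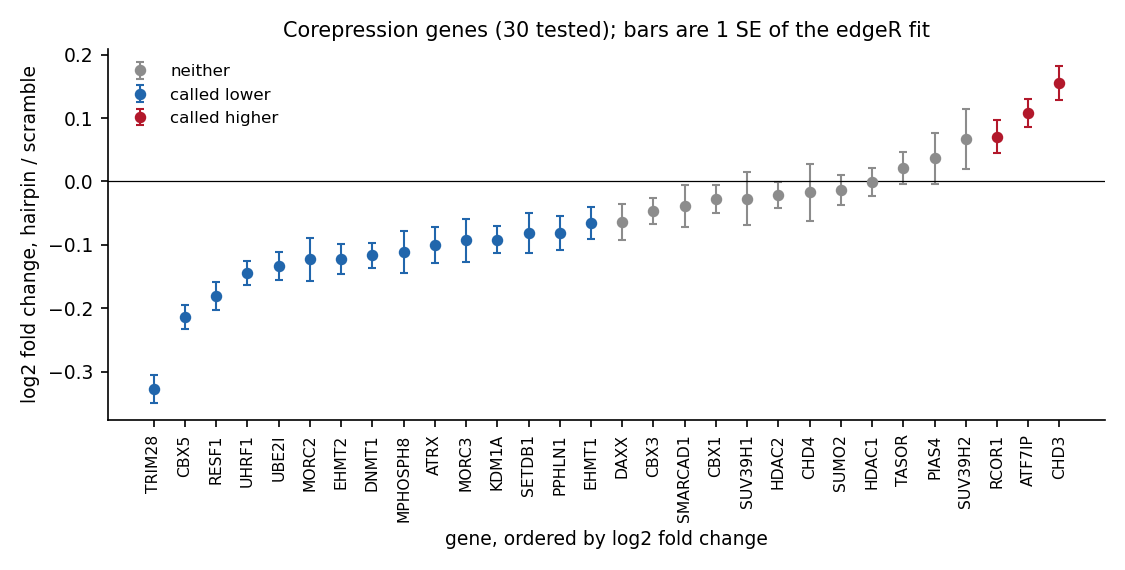
Points are log2 fold changes (MEF2C hairpin over scramble) with 1 SE for the 30 tested genes of the corepression list, ordered by size. TRIM28 lies lowest at -0.33 and CHD3 highest at 0.16.

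Relatives under other symbols were called in both directions. Symbols that begin with ZBTB, ZSCAN, ZKSCAN, ZFP or ZIK and a digit took in 44 genes of at least 20 CPM. Of these, 8 (18.2%) were lower and 5 (11.4%) higher, with a median of -0.03. Other protein-coding genes of at least 20 CPM had 31% lower, 15.1% higher and the same median. They were not matched for level, with median scramble levels of 49.7 CPM for the 44 and 72.1 CPM for the other genes. The counts of the 44 depend on the scaling. With offsets for GC content and length 14 were lower and 5 higher, and on gene totals without TMM scaling 3 were lower and 8 higher with a median of 0.01. Of the 44 genes 2, ZFP36L1 and ZFP36L2, had no C2H2 match, and both are among the 5 higher. ZKSCAN1 fell from 160.1, 161 and 159.5 CPM to 132, 134 and 133 CPM (log2 fold change -0.27, adjusted p = 1.89e-11) and ZFP91, a ubiquitin ligase, by 0.14. ZFP36L2, like ZFP36L1 an RNA-binding protein with CCCH rather than C2H2 fingers, rose from 92.3, 92.2 and 89.3 CPM to 121, 112 and 115 CPM (0.35, adjusted p = 5.63e-12), and ZBTB10 rose by 0.15. Of 289 ZNF genes under 20 CPM, 207 could be tested, and 23 (11.1%) were lower and 20 (9.66%) higher with a median of 0.00. These genes have fewer reads than the members, and the part of depth in their lower share of calls was not tested. Of them ZNF41 fell from 17.9, 17.8 and 17.4 CPM to 12.9, 14.1 and 13.2 CPM (-0.40, adjusted p = 3.25e-06). ZNF747 rose from 15.3, 14.4 and 14.6 CPM to 20.3, 20.01 and 19.4 CPM (0.43, adjusted p = 3.12e-07), but 89.6% of its 50-base stretches also occur in other genes.

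Sequence that members share with other genes went with lower values. In 29 members at least 10% of 50-base stretches occur in transcripts of other genes, and 14 of these (48.3%) were lower and 0 higher (0 also at an unadjusted p under 0.05 in edgeR and with DESeq2), with a median of -0.10, where the 191 others had 66 (34.6%) lower and 18 higher with a median of -0.06. Across the 220 members the shared percent and the log2 fold change had a Spearman correlation of -0.245, a description over genes that share libraries. Reads aligned to more than 1 place, which such genes draw, were most frequent in 1 MEF2C hairpin library, replicate 3. Without that library 79 of all 220 members were lower and 16 higher, a count that was not made for the 29 alone. The median scramble level was 33.8 CPM for the 29 and 46.0 CPM for the 191, so they were not matched for level. ZNF320 and ZNF286A shared most, at 99.5% and 68.9%, and neither passed the test.

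The hairpin's own 7-mers were counted in the longest coding transcript of each gene. The run GGAATGA, a match to bases 2 to 8 of its guide strand, stood in the coding sequence of 20 members, of which 8 were lower and 3 higher (median -0.07, as in the 200 without it), and in the 3′ UTR of 27 members, of which 9 were lower and 2 higher (median -0.05, against -0.08 in the 193 without it). TCATTGG, the match to the passenger strand, stood in 22 coding sequences, with 9 lower and 2 higher (median -0.08). It stood in the 3′ UTR of 42 members, with 12 lower and 4 higher (median -0.08). Among other genes of at least 20 CPM, 32.1% were lower with GGAATGA in the coding sequence and 34.6% with it in the 3′ UTR. For TCATTGG these shares were 28.9% and 33.6%. Without the match, 30.5% to 31.3% of other genes were lower. The run TGAGAAA is neither of these matches and was picked with earlier results of these data known. Counted anywhere in the coding sequence and not only in linkers, it stood in 101 members (45.9%). Of 7118 other genes of at least 20 CPM, 24.2% held it. Their coding sequences are shorter, with a median of 1489.5 against 1798.5 bases. The 101 members had 40 lower and 5 higher with a median of -0.10, and the 119 without it 40 lower and 13 higher with a median of -0.06. In other genes the medians were -0.05 with the run and -0.03 without it. Because of how the run was picked, these lower medians are a description and no test. A second run known from earlier results, TTGAGAA, stood in the coding sequence of 47 members. Of these, 15 (31.9%) were lower, against 65 (37.6%) of the 173 without it, with medians of -0.08 and -0.07. Lower calls were thus less frequent among the 47. Their median scramble level was also lower, at 35.1 against 45.9 CPM, so the groups were not matched for level. In other genes lower calls made up 37.3% with the run and 29.4% without. With TTGAGAA in the 3′ UTR, 26 of 69 members (37.7%) were lower, against 54 of 151 (35.8%) without it. In other genes these shares were 41.9% and 28.2%. With TGAGAAA in the 3′ UTR, 32 of 79 members were lower, against 48 of 141 without it, with medians of -0.09 and -0.06. A search on both strands of 300-base RefSeq promoters, from 250 before to 50 after each start, found the MEF2 box in 2 of 196 members' promoters (1.02%), those of ZNF557 and ZNF708, and in 0 of 73 lower and 0 of 15 higher members. It stood in 1.21% of promoters of other genes of at least 20 CPM and 2.12% of all protein-coding promoters, and a missing match says only that these letters are not in that window.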

How the data were processed

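The authors deposited unnormalized counts of reads per gene, as whole numbers, for each of 3 scramble and 3 MEF2C hairpin libraries. Per the submitters' processing notes, Trim Galore, STAR and HTSeq were used with genome build hg38. Their versions, the annotation release and the strand setting were not given in the sources used here. HTSeq leaves out reads that fall in more than 1 gene or align to more than 1 place, which lowers overlapping genes and near-identical copies. The 5 summary lines below the 78932 gene identifiers took 19.2% to 31.4% of reads and stayed out of totals and tests. A symbol table named 61481 identifiers. Positions, exons and transcripts came from GENCODE 29 on GRCh38, which held all 220 members, and promoters from RefSeq, which matched 196.

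Genes were kept by filterByExpr (minimum count 10), scaled by TMM and fitted with edgeR 4.0.16 (R 4.3.3) by the quasi-likelihood test with group as the only term. P-values were adjusted by Benjamini-Hochberg across the 17677 genes tested (threshold 0.05). Printed CPM are TMM-scaled, while the level of the rule uses gene totals. The test was checked on simulated data. The common biological coefficient of variation was 0.0324, and 3 reads, the floor for detection, were at most 0.0658 CPM. Intervals cover counting error only. Chi-square per gene between replicates of 1 group was 3.31 to 4.46, above sampling noise, so none was taken as a repeat deposit.

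Members and lists were chosen with earlier results of these data known, so lists are described by counts and medians and carry no test. Named are MEF2C, the 5 most abundant members, 3 genes on each side of 20 CPM, up to 10 members each with the largest decrease and increase past the threshold and groups that do not overlap, the 5 smallest changes, up to 4 genes of each other list by adjusted p, and TRIM28 and SETDB1. Other named genes were picked after their values were seen. Alternatives were DESeq2 1.42.0, limma-voom (limma 3.58.1), other scalings, filters and levels, each library left out, a replicate block, and offsets for GC content and length.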

Additional observations from a re-analysis of the deposited data

How the results depend on the processing

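With each library left out in turn, 73 to 79 members were lower, 11 to 16 higher (11 without MEF2C hairpin replicate 1) and the median log2 fold change ran from -0.080 to -0.068. The median was -0.064 with upper-quartile scaling, -0.063 with at least 1 CPM in 3 libraries, -0.069 for the 218 members chosen on MEF2C hairpin libraries, -0.065 for the 298 ZNF genes of at least 10 CPM, -0.060 for the 117 of at least 40 CPM, of which 49 were lower, and -0.063 for members with under 10% of stretches shared. On gene totals without further scaling, an alternative chosen after seeing the data like that on shared stretches, the median was -0.031, with 62 members lower and 28 higher. Over all tested genes that scaling gave 1714 lower and 3327 higher against 2711 and 2386. Without level classes, 30.99% of the other genes were lower and 15.06% higher, with a median of -0.032. ZNF512B turned to -0.054 with GC content and length offsets and was called higher on gene totals (0.065, adjusted p = 0.0312). With the replicate number as a block, 77 members were lower and 16 higher, and 89 and 18 with the offsets as well, where other protein-coding genes had 29.47% and 36.61% lower. Deviations of libraries correlated at -0.0843, 0.0118 and 0.0143 for equal numbers and at -0.107 to 0.11 for all pairs. No closer link between equal numbers was seen, and whether they share a day or batch cannot be told from these values. The cause of these differences was not tested. Of the calls, 61 of 80 lower and 7 of 18 higher were made in all 16 alternative fits. Changes under about 0.1 on the log2 scale are at the limit of these libraries, and technical replicates of 1 line and 1 hairpin say nothing of variation between cultures.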

Other observations

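Genes that carry a ZNF name but are not protein-coding were called in both directions. Of 151 such identifiers 44 were tested, and 4 were lower and 6 higher, with a median log2 fold change of 0.03. Of 37 tested antisense or divergent transcripts, 3 were lower and 6 higher, with a median of 0.12. ZNF667-AS1 rose from 22.0 to 25.4 CPM (log2 fold change 0.21, edgeR adjusted p = 0.00228), whereas ZNF667 on the other strand fell by 0.20. ZNF232-AS1 rose by 0.33 (edgeR adjusted p = 0.000464), and ZNF407-AS1 fell by 0.19 (edgeR adjusted p = 0.00166), as ZNF407 did, by 0.19. The pseudogene ZNF252P fell from 21.7 to 18.9 CPM (edgeR adjusted p = 0.00553). Reads from a gene and its antisense partner cannot be told apart where counting ignored strand, and the sources used here do not give that setting.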
